A study of Homo sapiens with 12 samples.

Results

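MDA-MB-231 is an established human breast cancer line of the triple-negative class, and its response to everolimus is described here across all genes that the arrays could name. The response is the difference between 3 arrays of cells kept for 48 h in 10 uM everolimus and 3 arrays of cells kept for 48 h in DMSO, the vehicle. The members are all genes whose probes carry a single gene symbol, which were 30113 of 47230 probes and 20046 genes. Of these genes, 11764 had a probe above background and were tested. Total RNA was hybridised to Illumina bead arrays, and the study holds 12 arrays in all, since the triple-negative line BT-549 was given the same drug and vehicle (3 arrays each). Signals are given on the log2 scale, so that a difference of 1 is a 2-fold change, and every fold change is everolimus over DMSO. Whether replicates are separate cultures is not said in the labels, and the p-values therefore speak to the spread between these arrays alone, which may be technical.

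Everolimus is a rapamycin analogue that binds the immunophilin FKBP12 and blocks mTOR complex 1, the kinase complex through which amino acids and growth factors drive ribosome production, translation and mitochondrial gene expression. Active mTOR complex 1 also restrains autophagy and, through feedback, the insulin and growth factor receptors and their adaptors. When signalling from PI3K and AKT falls, FOXO transcription factors enter the nucleus and raise genes of quiescence, metabolism and stress resistance. In breast cancer, everolimus is known as a partner of endocrine therapy in hormone receptor-positive disease.

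Markers of the line and of other cell types were read first. The mesenchymal and basal genes VIM, CD44, AXL, MSN and CAV1 lay above background on all 6 arrays, while the mesenchymal transcription factor ZEB1 did so on 1 of 6. The hormone receptor genes ESR1 and PGR and the epithelial genes CDH1, CLDN3 and ESRP1 were above background on none of the 6 arrays, but KRT8, KRT18, EPCAM and ERBB2 were above it on all 6. The summed signal of the 6 MDA-MB-231 markers over background lay between 28.91 and 29.37 log2 units on everolimus arrays and between 27.03 and 27.64 on DMSO arrays. The groups did not overlap in this sum, no single marker was called with all arrays, CAV1 and EPCAM were called higher without the replicate 1 arrays (adjusted p = 0.0308 and 0.041), and the part of this shift in the results below was not tested. On BT-549 arrays the 6 MDA-MB-231 markers summed to between 26.43 and 28.42. The DMSO arrays of MDA-MB-231 lay within that range and the everolimus arrays above it. The sum is therefore no check of which line was read. Markers of BT-549 (COL1A2, COL3A1, SPARC, CDH2 and POSTN) summed to between -0.15 and 0.54 on everolimus arrays of MDA-MB-231. They summed to between -0.01 and 0.45 on its DMSO arrays, against 13.53 to 20.89 on BT-549 arrays. Of 4 leukocyte markers, PTPRC and CD3E were above background on no array, and CD14 and LYZ on all 6. Of the endothelial markers CDH5 was above background on none of the 6 arrays, and PECAM1 and VWF on 1 each. In bulk RNA, fewer cells of one kind and less RNA per cell cannot be told apart.

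The 2 arrays numbered 1 stood apart from the other 4. Correlations between arrays of one group were 0.967 and 0.964 for everolimus array 1 with arrays 2 and 3, and 0.995 between arrays 2 and 3. The same values for DMSO were 0.968, 0.973 and 0.99. Same-numbered arrays of everolimus and DMSO deviated from their group means together (r = 0.735, 0.544 and 0.418 across genes), so the replicate number was also fitted as a block, and the fit was repeated without the replicate 1 arrays. Block values stand beside the genes, and what the lists gained without the replicate 1 arrays is given together after the gene groups. Array 3 of everolimus correlated better with DMSO array 2 (0.546) than with its own number.

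After everolimus, 18 genes of MDA-MB-231 passed an adjusted p of 0.05 (limma, Benjamini-Hochberg), which is 0.153% of the genes tested. Of these, 12 rose (0.102%) and 6 fell (0.051%). The rises were ZNF581, KLHL24, RIOK3, ZSWIM4, GAB2, IRS2, CREBRF, PTK6, TFPI, KLF13, COQ8A and LIMCH1, and 3 of them reached 2-fold. The falls were NDUFAF5, LSM10, RTN4IP1, NUDT16L1, C19orf53 and UBE2NL, and none reached 2-fold. In all 18 the everolimus and DMSO arrays did not overlap, and the same held for 1015 genes higher (8.63%) and 1169 lower (9.94%) over all genes tested. Most genes moved little: 8881 of 11764 genes had an absolute log2 fold change under 0.25, 27 reached 1, and the median was -0.01.

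With the replicate block, 39 genes rose (0.332%) and 40 fell (0.34%), together 0.672% of the genes tested, and 15 of the first 18 genes were among these 79. NUDT16L1, C19orf53 and UBE2NL missed the threshold with the block (adjusted p = 0.0504 each). The 2 fits together called 82 genes, and in all 82 the 3 same-numbered differences had one sign. The calls themselves favour genes of this kind, and the share over all genes tested was not computed, so this count is a description alone. Without the replicate 1 arrays of both lines, 415 genes rose (3.53%) and 391 fell (3.32%), together 6.85%, and these 806 included all 18 and 75 of the 79, the exceptions being RPL13A, LYAR, UQCC3 and CCL2. The calls rested on the replicate 2 and 3 arrays of this line: leaving out everolimus array 2 or 3, or DMSO array 2 or 3, left 0 calls by limma in each case, with 403 to 500 genes higher and 477 to 612 lower at an unadjusted p under 0.05. Leaving out everolimus array 1 gave 22 higher and 13 lower, and leaving out DMSO array 1 gave 3 and 1. With the 6 MDA-MB-231 arrays fitted alone, limma called 0 genes (731 higher and 856 lower at an unadjusted p under 0.05), against 519 higher and 525 lower with the block added. Arrays of BT-549 share in the estimate of spread: without its everolimus array 1 the counts were 63 and 62, and without its DMSO array 2 they were 0 and 1.

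**Figure D1:**
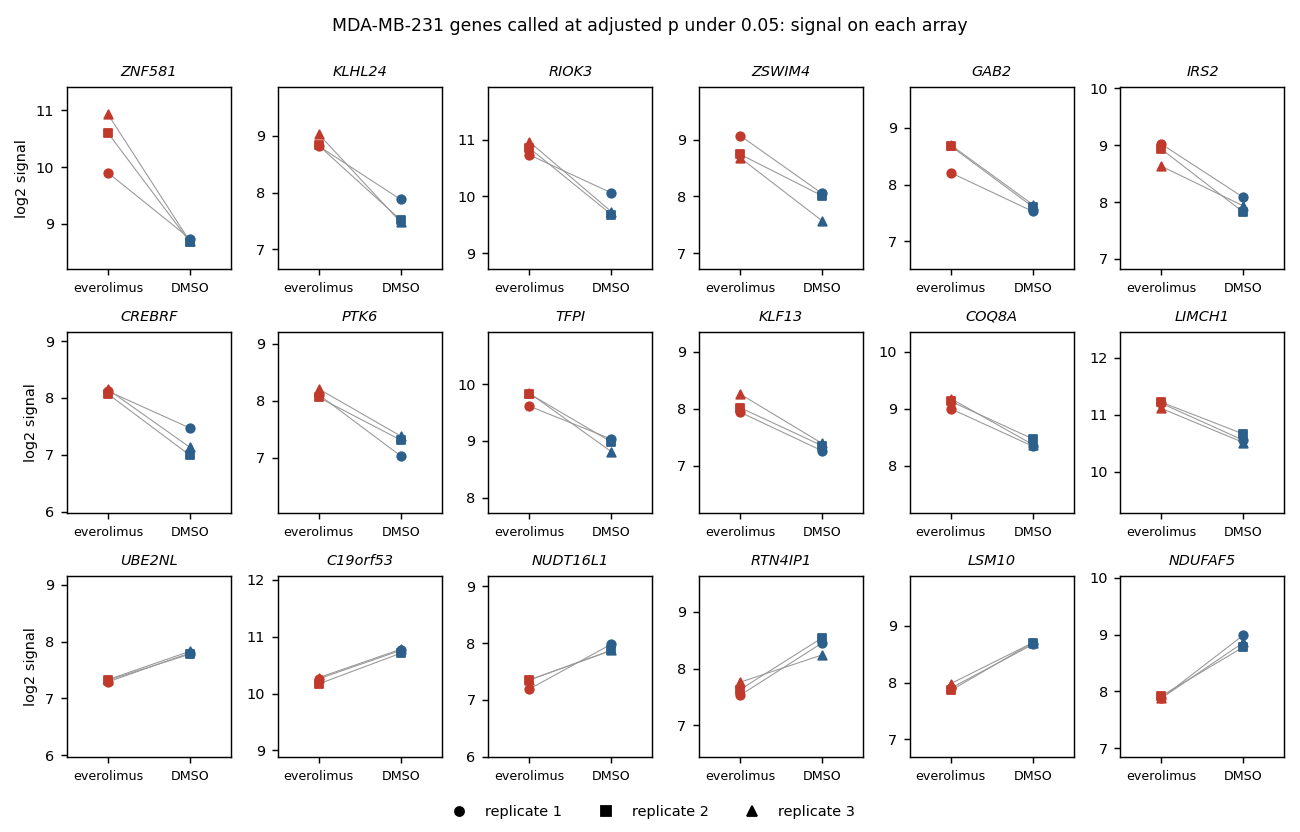
Log2 signal of the 18 called genes on the 3 everolimus arrays (left of each panel, red) and the 3 DMSO arrays (right, blue) of MDA-MB-231, with a line joining arrays of the same replicate number and the same vertical span in every panel. In every panel the 3 everolimus arrays lie on one side of the 3 DMSO arrays.

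Receptor-proximal signalling genes were among the rises. GAB2, a docking adaptor that recruits PI3K and SHP2 to activated receptors, had log2 signals of 8.21, 8.68 and 8.70 on everolimus arrays and 7.53, 7.61 and 7.65 on DMSO arrays. The lowest everolimus array lay above the highest DMSO array, and GAB2 rose by 0.93 (SE 0.13, limma adjusted p = 0.0259). IRS2, the adaptor that carries signals from the insulin and IGF1 receptors, read 9.02, 8.93 and 8.63 with everolimus and 8.08, 7.82 and 7.93 with DMSO. It rose by 0.92 without overlap (SE 0.15, adjusted p = 0.0497). PTK6, a breast tumour tyrosine kinase, read 8.11, 8.06 and 8.21 with everolimus and 7.03, 7.31 and 7.38 with DMSO. It rose by 0.89 (SE 0.11, adjusted p = 0.0229), and a second, dimmer PTK6 probe differed by 0.17.

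These 3 were the genes called among 22 tested members of a list of growth factor receptors, adaptors and PI3K subunits, whose median log2 fold change was 0.05. None fell, and the 3 were called with the block as well. EGFR, the epidermal growth factor receptor, had 9.13, 9.11 and 9.14 on everolimus arrays against 8.42, 8.68 and 8.61 on DMSO arrays, a difference of 0.56 without overlap. It missed the threshold in both fits (adjusted p = 0.127, and 0.0644 with the block). ERBB2 differed by 0.05, and neither of the drug's binding partners was called: MTOR differed by -0.11 (SE 0.28) and FKBP1A, which encodes FKBP12, by 0.09 (SE 0.22). The other FKBP1A probes above background gave 0.33, 0.27 and -0.11.

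Genes linked to FOXO factors moved mostly upwards. Of 26 tested members, 24 had a log2 fold change above 0, the median was 0.37 and the range -0.12 to 1.47. CREBRF, KLF13, IRS2 and KLHL24 rose, and TXNIP rose as well with the block, against 0 falls in either fit. In 15 of the 26 members (57.7%) every everolimus array lay above every DMSO array, against 8.63% of all genes, and the opposite held for 0. The list was assembled with earlier results of these data known and contains genes that rose here, so its counts are a description.

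KLHL24, the substrate adaptor of a cullin ubiquitin ligase, had 8.82, 8.83 and 9.03 on everolimus arrays and 7.88, 7.52 and 7.48 on DMSO arrays. This 2.41-fold rise (log2 1.27, SE 0.21, adjusted p = 0.0497) held on every array, with DMSO array 1 nearest to the everolimus arrays. CREBRF, a regulator of the stress factor CREB3, had 8.12, 8.07 and 8.15 with everolimus and 7.47, 6.99 and 7.13 with DMSO. It rose by 0.92 (SE 0.12, adjusted p = 0.023), and its second probe gave 0.88. KLF13, a Kruppel-like transcription factor, had 7.94, 8.02 and 8.26 with everolimus and 7.26, 7.35 and 7.39 with DMSO. It rose by 0.74 without overlap (SE 0.11, adjusted p = 0.0463), the only call among 11 tested Kruppel-like factors, whose median was 0.25 (0.16 without everolimus array 1).

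TXNIP, which binds thioredoxin and lowers glucose uptake, showed how the replicate number bears on a call. Its signals were 11.65, 12.26 and 12.29 on everolimus arrays and 10.17, 10.86 and 10.76 on DMSO arrays, so that array 1 was low in both groups. The same-numbered differences were close to each other, and the 1.47 rise (SE 0.35) had an adjusted p of 0.128 without the block and 0.0338 with it. KLF6 differed by 0.84 (adjusted p = 0.128, and 0.0932 with the block) and CCNG2, an unconventional cyclin of resting cells, by 0.92 (adjusted p = 0.182 and 0.121), both without overlap.

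Promoters are shown for a pair of risers with a FOXO element and, further on, a pair of falling mitochondrial genes with an NRF1 element. The windows are those of RefSeq on GRCh38.p14, 250 bases before to 50 after the first listed gene start, and 66 of the 82 called genes matched one. The FOXO element searched was GTAAACA on either strand. It occurred in 4 of 35 promoters of genes that rose in either fit (COQ8A, JMY, TXNIP and WDR48), in 0 of 31 of those that fell, in 2.32% of 9426 tested genes and in 3.41% of all 27305 promoters. Capitals mark the element, which starts at position -124 in TXNIP (chr1:145996530-145996829, minus strand) and at position -2 in COQ8A (chr1:226940044-226940343, plus strand), where -1 is the base before the gene start. A match is a match of letters and no evidence of binding.
TXNIP: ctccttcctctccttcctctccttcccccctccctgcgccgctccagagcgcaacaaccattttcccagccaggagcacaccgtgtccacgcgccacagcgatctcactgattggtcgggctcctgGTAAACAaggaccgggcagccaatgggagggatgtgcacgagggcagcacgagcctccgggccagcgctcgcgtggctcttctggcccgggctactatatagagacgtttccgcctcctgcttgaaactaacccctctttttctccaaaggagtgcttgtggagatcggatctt
COQ8A: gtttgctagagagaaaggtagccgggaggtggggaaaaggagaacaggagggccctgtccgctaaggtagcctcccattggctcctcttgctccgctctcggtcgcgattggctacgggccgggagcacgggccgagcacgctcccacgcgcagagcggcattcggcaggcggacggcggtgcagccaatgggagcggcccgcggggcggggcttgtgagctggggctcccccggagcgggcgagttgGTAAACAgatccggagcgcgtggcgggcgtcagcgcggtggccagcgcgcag

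The CDK inhibitor and quiescence list, which shares 6 of its tested members with the FOXO list, lay in the same direction. Of 21 tested members 18 were above 0, the median was 0.43, and 12 (57.1%) were higher without overlap. None was called in either fit. All 6 shared members were among those without overlap. YPEL3, a growth-suppressive gene, had 8.23, 8.37 and 8.39 on everolimus arrays and 7.51, 7.70 and 7.62 on DMSO arrays, a difference of 0.72 (adjusted p = 0.195, and 0.0722 with the block). HBP1, a repressor of cell cycle genes, differed by 0.70 and CDKN1C, which encodes the CDK inhibitor p57, by 0.44.

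The largest rise was that of ZNF581, a zinc finger protein. Its signals were 9.90, 10.60 and 10.93 on everolimus arrays and 8.74, 8.68 and 8.69 on DMSO arrays. The DMSO arrays lay close together (SD 0.03, n = 3) while the everolimus arrays spread (SD 0.53, n = 3), and the rise was 3.42-fold (log2 1.77, SE 0.23, adjusted p = 0.0229). RIOK3, an atypical kinase linked to maturation of the small ribosomal subunit, had 10.73, 10.85 and 10.96 with everolimus and 10.06, 9.68 and 9.73 with DMSO. It rose by 1.02 (SE 0.12, adjusted p = 0.0229), and its second probe gave 0.67. ZSWIM4, a zinc finger protein, had 9.07, 8.74 and 8.68 with everolimus and 8.05, 8.01 and 7.57 with DMSO. It rose by 0.95 (adjusted p = 0.0463), while a second probe near background gave 0.07.

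TFPI encodes a secreted protein that blocks the start of blood clotting by tissue factor. It had 9.61, 9.83 and 9.84 on everolimus arrays and 9.03, 8.98 and 8.81 on DMSO arrays. It rose by 0.82 (SE 0.12, adjusted p = 0.0337), and its other probes gave 0.61 and 0.26. It was the single call among 32 tested genes of matrix, clotting and proteolysis. LIMCH1, an activator of non-muscle myosin, had 11.20, 11.22 and 11.11 with everolimus and 10.55, 10.66 and 10.51 with DMSO. Its arrays were among the tightest, and it rose by 0.60 (SE 0.10, adjusted p = 0.0497).

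Further genes rose with the block alone. GRN, which encodes the lysosomal growth factor progranulin, had 11.24, 10.86 and 10.85 on everolimus arrays and 10.07, 10.10 and 9.77 on DMSO arrays, a rise of 1.00 (adjusted p = 0.0373 with the block, 0.108 without). ULK1, the kinase that starts autophagy and that mTOR complex 1 holds inactive, had 9.24, 9.16 and 9.39 with everolimus and 8.55, 8.17 and 8.44 with DMSO. All 3 pairs were higher with everolimus, and ULK1 rose by 0.88 with the block (adjusted p = 0.0393, and 0.0862 without).

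PIM1, a growth-promoting serine/threonine kinase, had 7.70, 8.37 and 8.26 on everolimus arrays and 7.06, 7.40 and 7.10 on DMSO arrays, a rise of 0.92 (adjusted p = 0.0417 with the block). RRAS, a small GTPase of the RAS family, had 10.00, 9.68 and 10.17 with everolimus and 8.96, 8.81 and 9.03 with DMSO, a rise of 1.02 (adjusted p = 0.0403 with the block). Neither passed without the block, at 0.086 and 0.185. Further rises of this kind included EPB41L4A-AS1 (1.24), HS1BP3 (1.05), NTN4 (1.03), GRAMD1A (0.94), MGST3 (0.91), WDR48 (0.88) and NOP53 (0.88), with adjusted p between 0.0225 and 0.0476. NTN4 encodes a secreted netrin, GRAMD1A a sterol transfer protein, MGST3 a microsomal glutathione transferase, WDR48 the cofactor of the deubiquitinase USP1 and NOP53 a nucleolar ribosome assembly factor.

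**Figure D2:**
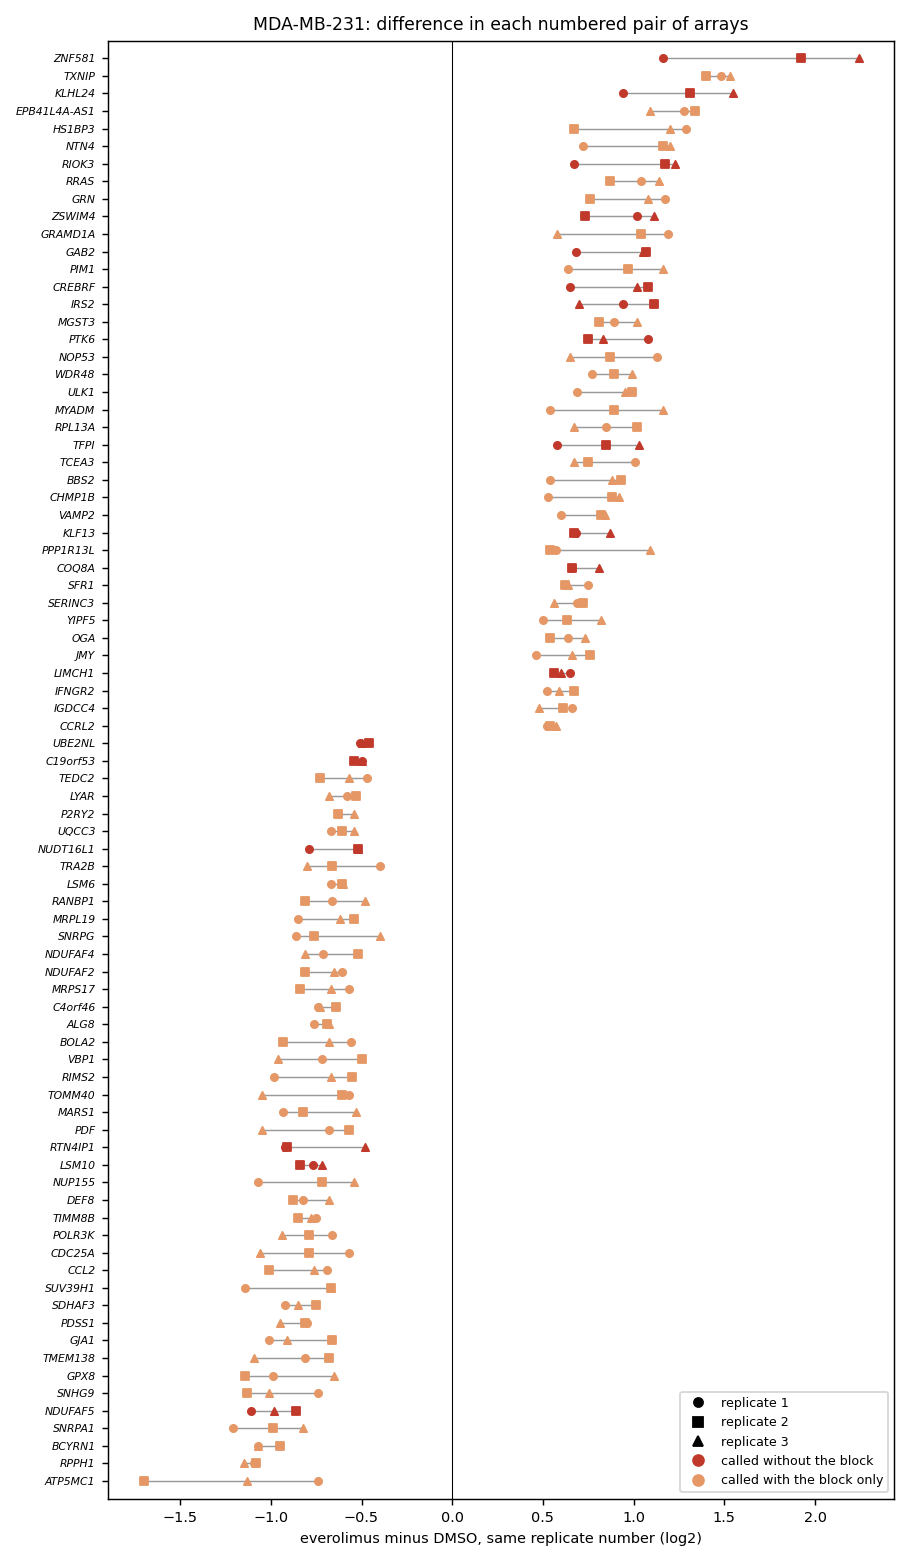
Everolimus minus DMSO (log2) between arrays of the same replicate number for the 82 genes called in MDA-MB-231, one row a gene, with symbols for the 3 numbers, dark red for the 18 genes called without the block and orange for those called with the block alone. The differences of each gene keep one sign in all 3 pairs, which the calls themselves favour, and ZNF581 and KLHL24 show the smallest of their 3 differences in pair 1.

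Within the mTOR pathway itself, ULK1 was the single gene called among 37 tested components and regulators, with the block, and the list median was -0.07. EIF4EBP1, the translational repressor that the kinase phosphorylates, differed by -0.44, and the Rag GTPase gene RRAGA by 0.43 (adjusted p = 0.393 and 0.297). Among 32 autophagy genes the median was 0.01, and ULK1 was again the single call, with the block. GABARAPL1, which coats the autophagosome membrane, had 8.20, 8.59 and 8.85 on everolimus arrays and 7.66, 7.85 and 7.65 on DMSO arrays. The difference of 0.83 had no overlap, but an adjusted p of 0.0834, and 0.0567 with the block. The autophagy receptors OPTN and SQSTM1 differed by 0.82 and 0.66. Without the replicate 1 arrays, 8 autophagy genes were called higher and 1 lower.

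Of 34 lysosomal and V-ATPase genes none was called in either fit. The median was 0.10, 6 members (17.6%) were higher without overlap and 0 lower. The cathepsin gene CTSD had 10.60, 10.07 and 10.24 on everolimus arrays and 9.55, 9.42 and 9.50 on DMSO arrays, a difference of 0.81 (adjusted p = 0.255, and 0.0743 with the block). CTSL differed by 0.64 and the peptidase TPP1 by 0.74. Leaving out DMSO array 1, which was low for TPP1 (7.26 against 8.16 and 8.34), took the list median to -0.01.

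Among mitochondrial genes, complex I assembly factors held 2 of the 6 falls, and 4 of 18 tested members fell with the block (median -0.22). NDUFAF5, which modifies a complex I subunit during assembly, had 7.88, 7.92 and 7.88 on everolimus arrays and 8.99, 8.78 and 8.86 on DMSO arrays. The everolimus arrays were tight (SD 0.02, n = 3) and well under the DMSO arrays, and the change of -0.98 (SE 0.10) had the smallest adjusted p of all genes, 0.0148. Its second probe gave -0.71. RTN4IP1, a mitochondrial oxidoreductase of complex I assembly and coenzyme Q synthesis, had 7.53, 7.63 and 7.76 with everolimus and 8.45, 8.54 and 8.24 with DMSO, a change of -0.77 (SE 0.11, adjusted p = 0.0337).

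NDUFAF2 and NDUFAF4, further complex I assembly factors, fell with the block, by 0.69 and 0.68 (adjusted p = 0.0455 and 0.0403). NDUFAF2 had 10.30, 10.20 and 10.25 on everolimus arrays and 10.91, 11.01 and 10.90 on DMSO arrays. The groups were well apart, and without the block its adjusted p was 0.101. SDHAF3, the assembly factor of complex II, had 8.73, 8.05 and 8.07 with everolimus and 9.65, 8.80 and 8.92 with DMSO. Array 1 was high in both groups, and the fall of 0.84 passed with the block (adjusted p = 0.0338, and 0.186 without).

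Structural subunits of the respiratory chain were read as 2 lists. Of 35 complex I subunits 32 were below 0 (median -0.22), 9 (25.7%) were lower without overlap against 9.94% of all genes, and none was called. Of 37 subunits of complexes II to V, 33 were below 0 (median -0.20) and 13 (35.1%) were lower without overlap. ATP5MC1, a subunit of the rotor ring of ATP synthase, was the one called, with the block: it had 9.64, 8.85 and 8.78 on everolimus arrays and 10.38, 10.55 and 9.91 on DMSO arrays. The fall of 1.19 (SE 0.24) was the largest of the called genes, with an adjusted p of 0.043 with the block and 0.0856 without, and a dimmer second probe gave -0.34. The complex III subunits UQCR10 and UQCRQ differed by -0.82 and -0.53 and stood just above the threshold with the block (adjusted p = 0.0504 each). The other UQCR10 probes above background were dimmer and differed by only -0.13 and -0.12.

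Mitochondrial ribosomal proteins lay lower in most cases: 69 of 76 tested members were below 0, the median was -0.19, and 24 (31.6%) were lower without overlap against 1 higher. MRPL19 and MRPS17 fell with the block. MRPL19 had 9.43, 9.49 and 9.26 on everolimus arrays and 10.28, 10.03 and 9.88 on DMSO arrays, a fall of 0.67 (adjusted p = 0.0476 with the block, 0.0665 without). Without the replicate 1 arrays 16 members fell and 1 rose. Single genes of import and maturation fell with the block as well: TIMM8B and TOMM40 of the import machinery by 0.79 and 0.74, and PDF, the mitochondrial peptide deformylase, by 0.77. A second, dimmer PDF probe gave -0.20. These genes were picked after their values were seen, and import and maturation genes were not read as a list.

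Coenzyme Q genes moved in opposite directions. COQ8A, an atypical kinase of coenzyme Q synthesis, had 9.0, 9.13 and 9.18 on everolimus arrays and 8.34, 8.47 and 8.37 on DMSO arrays, and rose by 0.71 (SE 0.09, adjusted p = 0.0229). PDSS1, which builds the isoprenoid tail of coenzyme Q, had 8.17, 8.16 and 8.05 with everolimus and 8.97, 8.97 and 9.0 with DMSO. It fell by 0.85 with the block (adjusted p = 0.0403, and 0.0665 without), and a second probe gave -0.36. These were the called genes among 28 tested members of coenzyme Q synthesis and the citric acid cycle, whose median was -0.02.

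The NRF1 element searched was GCGCA, any base and GCGC, on either strand. NRF1 is a transcription factor known for nuclear genes of mitochondrial proteins. The element occurred in 5 of 31 promoters of falling genes (LYAR, NDUFAF5, POLR3K, SDHAF3 and TOMM40), 2 of 35 of rising genes (OGA and RPL13A), 11.9% of tested genes and 6.28% of all promoters. In the windows below capitals mark this element and, in NDUFAF5 (chr20:13784778-13785077, plus strand), also the E-box CACGTG at position -126. The NRF1 element starts at position -4 in NDUFAF5 and at positions -208 and -8 in SDHAF3 (chr7:97117448-97117747, plus strand). The E-box occurred in 10.4% of tested genes, in 3 rising and 2 falling ones.
NDUFAF5: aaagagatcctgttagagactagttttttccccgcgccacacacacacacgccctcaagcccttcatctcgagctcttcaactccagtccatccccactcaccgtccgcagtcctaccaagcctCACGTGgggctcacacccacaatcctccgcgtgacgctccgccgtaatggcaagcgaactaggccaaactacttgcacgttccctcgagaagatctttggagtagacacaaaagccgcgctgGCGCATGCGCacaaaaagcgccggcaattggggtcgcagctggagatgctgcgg
SDHAF3: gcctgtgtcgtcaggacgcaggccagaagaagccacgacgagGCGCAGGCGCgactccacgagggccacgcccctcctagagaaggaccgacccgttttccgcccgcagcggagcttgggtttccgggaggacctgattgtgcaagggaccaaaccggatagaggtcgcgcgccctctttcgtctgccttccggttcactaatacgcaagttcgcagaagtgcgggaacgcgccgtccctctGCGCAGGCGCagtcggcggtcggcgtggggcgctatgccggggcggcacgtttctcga

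Cytosolic translation genes did not move as one group. Of 50 genes of ribosome biogenesis and RNA polymerase I, 42 were below 0 (median -0.30), and 18 (36%) were lower without overlap against 3 higher. LYAR, a nucleolar protein, was the one member called, with the block (change of -0.60, adjusted p = 0.0476). NOP53 and RIOK3, described above and not in this list, rose by 0.88 (with the block) and 1.02. NOP56, a core protein of the box C/D snoRNA particle, had 11.00, 10.13 and 10.05 on everolimus arrays and 11.32, 11.30 and 11.26 on DMSO arrays, a difference of -0.90 (adjusted p = 0.118, and 0.0642 with the block). By contrast, 47 of 66 cytosolic ribosomal protein genes were above 0, with a median of 0.04.

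RPL13A of the large subunit had 13.31, 12.64 and 12.62 on everolimus arrays and 12.46, 11.62 and 11.95 on DMSO arrays. It rose by 0.85 with the block (adjusted p = 0.043, and 0.413 without), and RPL36A differed by -0.84 (0.103, and 0.0676 with the block). Ribosomal protein genes have many near-identical copies, so single probes may be shared between them. Of 36 initiation factor genes none was called with all arrays, and 13 were above 0 and 23 below (median -0.08, range -0.53 to 0.98). The cap-binding protein EIF4E differed by -0.53 (adjusted p = 0.0665, and 0.0548 with the block), EIF1 by 0.59 and EIF3F by 0.43. Without the replicate 1 arrays 4 initiation factor genes were called higher and 2 lower.

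Of 18 cytosolic aminoacyl-tRNA synthetases, 15 were below 0 (median -0.25, and -0.13 without everolimus array 1), and 9 (50%) were lower without overlap. MARS1, which charges tRNA with methionine, had 8.65, 8.65 and 8.95 on everolimus arrays and 9.58, 9.47 and 9.48 on DMSO arrays. It fell by 0.76 with the block (adjusted p = 0.0403, and 0.0686 without). Of 26 ATF4 targets and amino acid supply genes none was called. PSAT1, an enzyme of serine synthesis, had 8.53, 8.48 and 8.58 with everolimus and 9.76, 9.33 and 9.84 with DMSO, a difference of -1.11 (adjusted p = 0.135, and 0.0504 with the block).

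**Figure D3:**
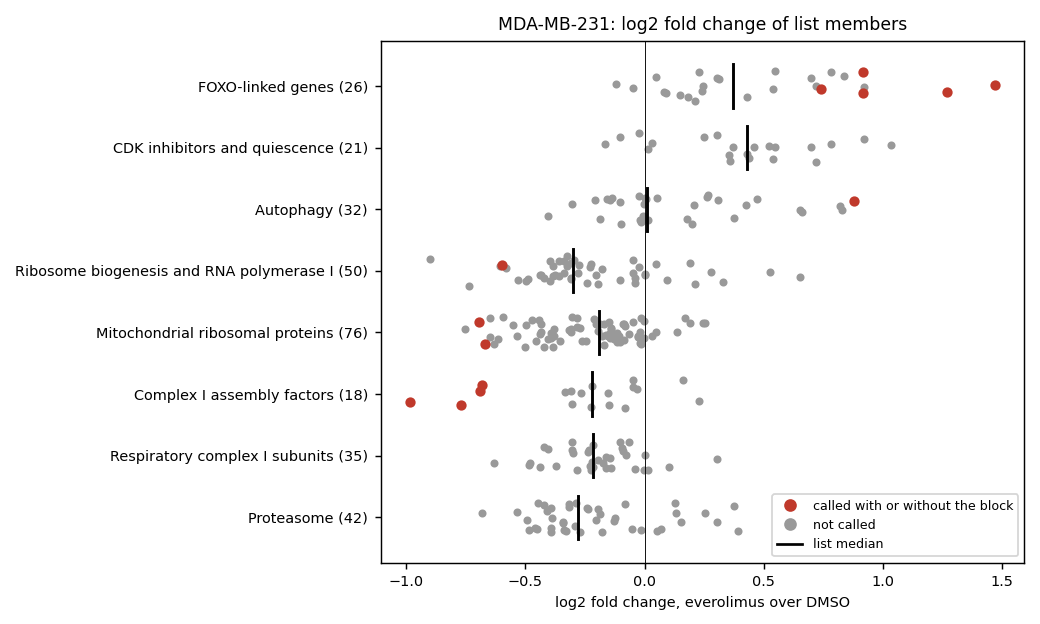
Log2 fold change (everolimus over DMSO, MDA-MB-231) of every tested member of 8 gene lists, with the number tested in brackets, called genes in red and a black bar at the list median. The medians of the FOXO-linked and quiescence lists are 0.37 and 0.43, and those of the ribosome biogenesis, mitochondrial ribosome, complex I and proteasome lists lie between -0.30 and -0.19.

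RNA processing genes fell in small numbers. LSM10, a subunit of the U7 particle that trims histone mRNA, had 7.90, 7.86 and 7.98 on everolimus arrays and 8.67, 8.70 and 8.70 on DMSO arrays. Both groups were tight and well apart, and LSM10 fell by 0.78 (SE 0.10, adjusted p = 0.023). With the block, SNRPG and LSM6 fell too, by 0.67 and 0.63 (adjusted p = 0.0497 and 0.0403), so that 3 of 23 tested members of the LSM, Sm and histone mRNA list were called, and 9 (39.1%) were lower without overlap against 0 higher. SNRPA1, a protein of the spliceosome's branch-point particle, had 10.49, 11.18 and 11.14 with everolimus and 11.70, 12.17 and 11.96 with DMSO, a fall of 1.01 (adjusted p = 0.0373 with the block).

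Some non-coding RNAs and host transcripts were among the larger changes with the block. RPPH1, the RNA of ribonuclease P, had 7.03, 7.75 and 7.60 on everolimus arrays and 8.12, 8.83 and 8.75 on DMSO arrays, a fall of 1.11 (adjusted p = 0.0338). BCYRN1, a brain cytoplasmic RNA with an Alu-related part that a probe may share with other loci, fell by 1.03 (adjusted p = 0.0341). POLR3K, a subunit of RNA polymerase III, which transcribes both, had 7.39, 7.31 and 7.05 with everolimus and 8.05, 8.10 and 7.99 with DMSO. It fell by 0.80 with the block (adjusted p = 0.0341, and 0.0665 without). Of 17 tested snoRNA host transcripts, EPB41L4A-AS1 rose by 1.24 and SNHG9 fell by 0.96 with the block (adjusted p = 0.0225 and 0.0338), and the median was 0.07.

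Few cell cycle and replication genes were called. Of 42 replication and nucleotide synthesis genes, 37 were below 0 (median -0.19), and of 40 mitotic genes 32 (median -0.22). The mitotic median rested on everolimus array 1: it was -0.03 without that array and -0.07 without the replicate 1 arrays of both lines, and -0.13 without DMSO array 2. In the 2 lists 8 (19%) and 7 (17.5%) were lower without overlap and 0 higher, with no call in the first. CDC25A, the phosphatase that activates CDKs at S phase entry, had 7.58, 7.84 and 7.54 on everolimus arrays and 8.15, 8.63 and 8.60 on DMSO arrays. It fell by 0.81 with the block (adjusted p = 0.0403), and without the block it had an SE of 0.41 and an adjusted p of 0.54. SKP2, the ubiquitin ligase subunit that removes the CDK inhibitor p27, had 9.05, 8.66 and 8.27 with everolimus and 9.74, 9.44 and 9.61 with DMSO, a difference of -0.94 (adjusted p = 0.0948, and 0.0504 with the block).

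DNA repair genes showed few calls. Of 37 homologous recombination genes, SFR1 rose by 0.67 with the block (adjusted p = 0.0403, and 0.101 without), though its second probe gave 0.07. The median was -0.07, and 9 members (24.3%) were lower without overlap against 1 higher. TOP3A differed by -0.70 and PARP1 by -0.51, and neither was called. NUDT16L1, a regulator of the repair factor TP53BP1, had 7.19, 7.35 and 7.35 on everolimus arrays and 7.98, 7.87 and 7.87 on DMSO arrays. It fell by 0.61 (SE 0.10, adjusted p = 0.0497).

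SUV39H1, a methyltransferase that places the H3K9 mark of heterochromatin, had 7.81, 7.92 and 8.05 on everolimus arrays and 8.95, 8.59 and 8.72 on DMSO arrays. The groups did not overlap, and array 1 of DMSO was the highest. It fell by 0.83 with the block (SE 0.15 without it, adjusted p = 0.0476), and missed the threshold without the block at 0.0665. It was the single call among 28 genes of H3K9 methylation and heterochromatin. The demethylase gene KDM3A differed by 0.48 and the lamin gene LMNB2 by -0.66, neither called.

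No tested member of the proteasome list or of the heat shock and chaperonin list was called with all arrays in either fit. Of 42 proteasome genes 33 were below 0 (median -0.28) and 18 (42.9%) lower without overlap, and of 33 heat shock and chaperonin genes 26 were below 0 and 9 (27.3%) lower without overlap. The heat shock median of -0.19 was -0.10 without everolimus array 1. PSMA2, a subunit of the proteasome core, had 8.22, 8.26 and 8.18 on everolimus arrays and 8.60, 8.81 and 8.73 on DMSO arrays, a difference of -0.49 (adjusted p = 0.0665, and 0.0518 with the block). HSPA14, a ribosome-associated chaperone, differed by -0.75. Of 29 glycolysis and pentose phosphate genes none was called, and the hexokinase HK2 differed by -0.62 (adjusted p = 0.0665, and 0.0548 with the block).

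NF-kB and cytokine genes depended on the arrays used. Of 31 tested, 20 were above 0 (median 0.23, and 0.04 without DMSO array 3), and 7 (22.6%) were higher without overlap against 0 lower. With all arrays CCL2 was the one called, lower, with the block, whereas without the replicate 1 arrays 10 of the 31 were called higher and 0 lower. CCL2, a monocyte-attracting chemokine, had 7.70, 9.80 and 9.19 on everolimus arrays and 8.39, 10.81 and 9.95 on DMSO arrays. The groups overlapped widely while each same-numbered pair was lower, and the call did not hold without the replicate 1 arrays (adjusted p = 0.0804). IL24, a cytokine of the interleukin-10 family, had 9.08, 9.0 and 9.76 with everolimus and 8.60, 7.46 and 7.37 with DMSO, a difference of 1.47 (adjusted p = 0.0895, and 0.063 with the block). DMSO array 1 was the highest DMSO array, and without the replicate 1 arrays IL24 rose by 1.96 (adjusted p = 0.00159). Of 34 interferon-stimulated and antigen presentation genes none was called with all arrays (median 0.18), and 4 were called higher without the replicate 1 arrays.

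Surface and junction genes included GJA1, a connexin of gap junctions, with 7.61, 7.74 and 7.75 on everolimus arrays and 8.62, 8.40 and 8.66 on DMSO arrays. It fell by 0.86 with the block (adjusted p = 0.0373, and 0.0737 without). Of 30 genes of the epithelial to mesenchymal transition none was called with all arrays (median 0.15, and 0.04 without DMSO array 1), among them VIM at 0.23 and CDH2 at -0.04. Of the antioxidant, cholesterol and unfolded protein response lists no member was called with all arrays in either fit, with medians of 0.00, -0.11 and -0.03. GPX8, which was not in the antioxidant list, was called lower with the block (log2 fold change -0.93), and its second probe gave -0.51. TMEM138 was called lower with the block as well (-0.86). The remaining falls without the block, C19orf53 (0.51) and UBE2NL (0.49), were small and tight. The UBE2NL transcript is nearly identical to that of UBE2N, and which of them its probe reads is uncertain.

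Without the replicate 1 arrays of both lines, against 3.53% of all genes called higher and 3.32% lower, several of these lists gained calls. Higher calls were 11 of 26 in the FOXO-linked list, 6 of 21 in the quiescence list and 4 of 34 in the lysosomal list. They were 6 of 28 among ERK phosphatases and MAPK feedback genes and 5 of 27 in the unfolded protein response list (and 1 lower). Among genes of the epithelial to mesenchymal transition they were 3 of 30. Lower calls were 3 of 35 among complex I subunits and 4 of 37 among subunits of complexes II to V. They were 8 of 50 in ribosome biogenesis (and 2 higher) and 3 of 18 among aminoacyl-tRNA synthetases. Replication had 6 of 42 lower, mitosis 4 of 40 and the LSM and histone mRNA list 5 of 23. The proteasome had only 3 of 42 lower and heat shock genes 2 of 33. Of 66 cytosolic ribosomal protein genes, 3 were called higher and 1 lower. These counts are a description alone. Genes given above as missing the threshold in both fits passed it there, in the same direction: EGFR, KLF6, CCNG2, YPEL3, HBP1, EIF4EBP1, RRAGA, GABARAPL1, OPTN, SQSTM1, CTSD, CTSL, TPP1, UQCR10, UQCRQ, NOP56, RPL36A, EIF4E, PSAT1, SKP2, TOP3A, PARP1, KDM3A, LMNB2, PSMA2, HSPA14, HK2 and IL24, with adjusted p from 0.000857 (NOP56) to 0.0375 (TPP1).

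**Figure D4:**
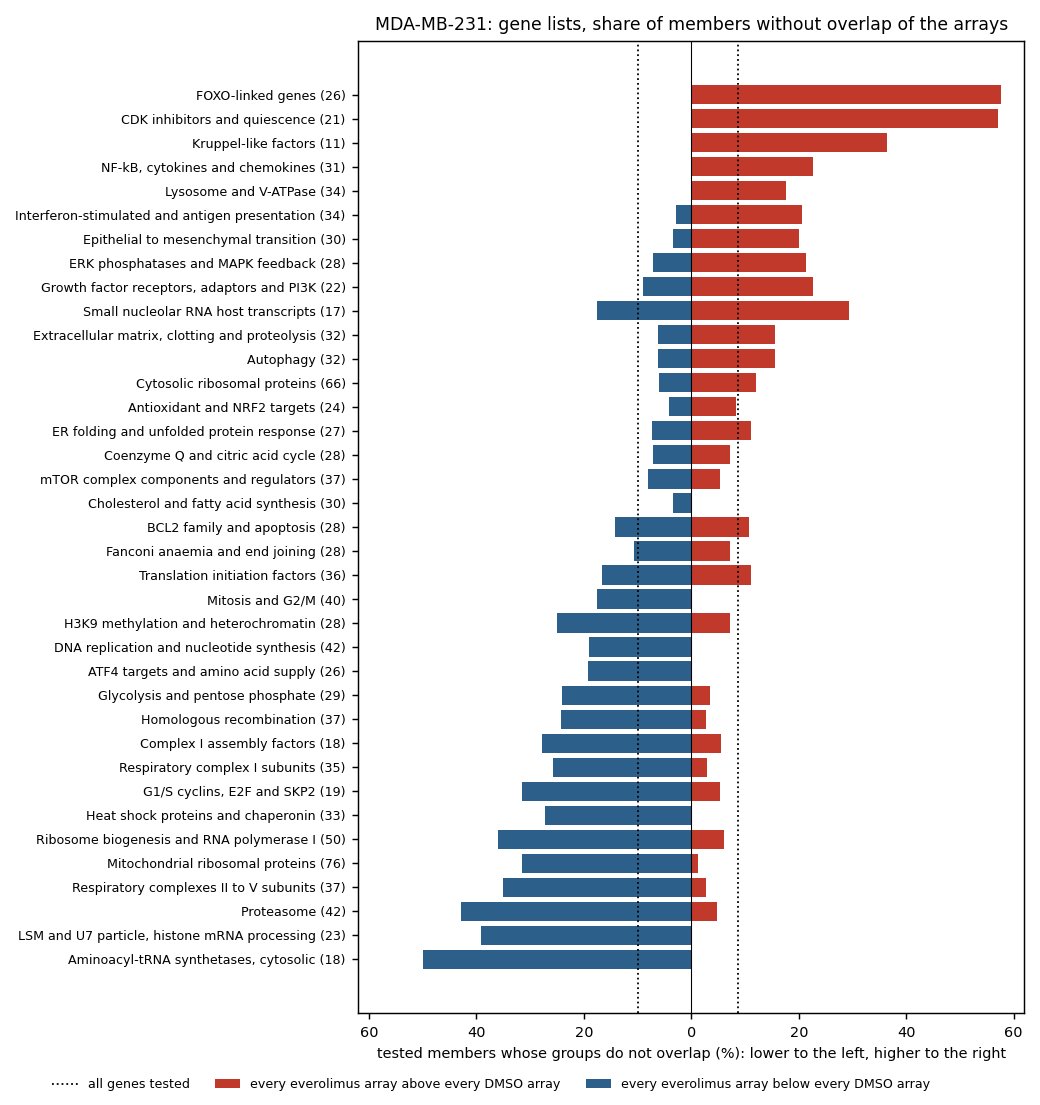
Percent of tested members of each gene list (number tested in brackets) for which every everolimus array of MDA-MB-231 lies above every DMSO array (red, to the right) or below it (blue, to the left), with dotted lines at 8.63% higher and 9.94% lower for all genes tested. The FOXO-linked list reaches 57.7% higher, and the aminoacyl-tRNA synthetases 50% lower.

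All probes of a gene above background were compared. Of 3117 genes with several, 2037 (65.4%) had fold changes of one sign in all probes. The same held for all 6 called genes with several probes and for 26 of 29 genes called with the block (89.7%). In 3 of those 6 genes the probes differed by more than 0.5, namely PTK6, TFPI and ZSWIM4, where the other probe or the weakest probe lay nearer to background. DEF8 had probes at -0.79, -0.71 and 0.55, and SERINC3 had 0.66, 0.42 and -0.08. BOLA2, whose copies are near-identical, gave -0.72 by its brightest probe and between -0.77 and 0.01 by the others.

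The response was set against that of BT-549 to see where MDA-MB-231 differed. BT-549 had 1972 called genes (16.8%; 9.54% higher and 7.23% lower), and 11 of the 18 genes of MDA-MB-231 were called there in the same direction, 8 higher and 3 lower. The difference between the lines was called for 75 genes (0.638%), 0.323% with a higher and 0.315% with a lower effect in MDA-MB-231. With the block it was called for 707 (6.01%), 2.71% higher and 3.3% lower. No difference was called by limma (0 genes) when any one of the replicate 2 or 3 arrays of MDA-MB-231 was left out, with 1458 to 1613 genes at an unadjusted p under 0.05. Of the 18 genes, PTK6, TFPI and COQ8A differed. PTK6 rose by 0.89 in MDA-MB-231 and differed by -0.06 in BT-549 (difference 0.95, adjusted p = 0.0392). In BT-549, PTK6 was not above background on any array (6.41, 6.54 and 6.63 with everolimus, against 6.51, 6.64 and 6.62 with DMSO), so no response could be measured there. TFPI rose by 0.82 in MDA-MB-231 and fell by 0.53 in BT-549 (difference 1.35, adjusted p = 0.0257). COQ8A rose by 0.71 in MDA-MB-231 against 1.51 in BT-549 (difference -0.80, adjusted p = 0.0392).

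Of the 82 genes called in either fit, EPB41L4A-AS1, RRAS, GAB2, MGST3, BBS2, CHMP1B, VAMP2, PPP1R13L, SFR1, LIMCH1, IFNGR2, P2RY2, NUP155 and RPPH1 also differed between the lines with the block. LIMCH1 and P2RY2 were, like PTK6, not above background on any BT-549 array. RPPH1 had log2 fold changes of -1.11 for MDA-MB-231 and 0.16 for BT-549 (adjusted p of the difference = 0.0172 with the block). IRS2 rose by 0.92 in each line. ZNF581 rose by 1.77 in MDA-MB-231, against 3.04 in BT-549, a difference that missed the threshold in both fits (adjusted p = 0.104 and 0.0566). SUV39H1 had log2 fold changes of -0.83 for MDA-MB-231 and -1.07 for BT-549, and the difference was not called (0.24, adjusted p = 0.623). Of the 79 genes called with the block, 73 had the same sign in BT-549. The share over all genes tested was not computed, so this count cannot be read as a measure of shared response.

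**Figure D5:**
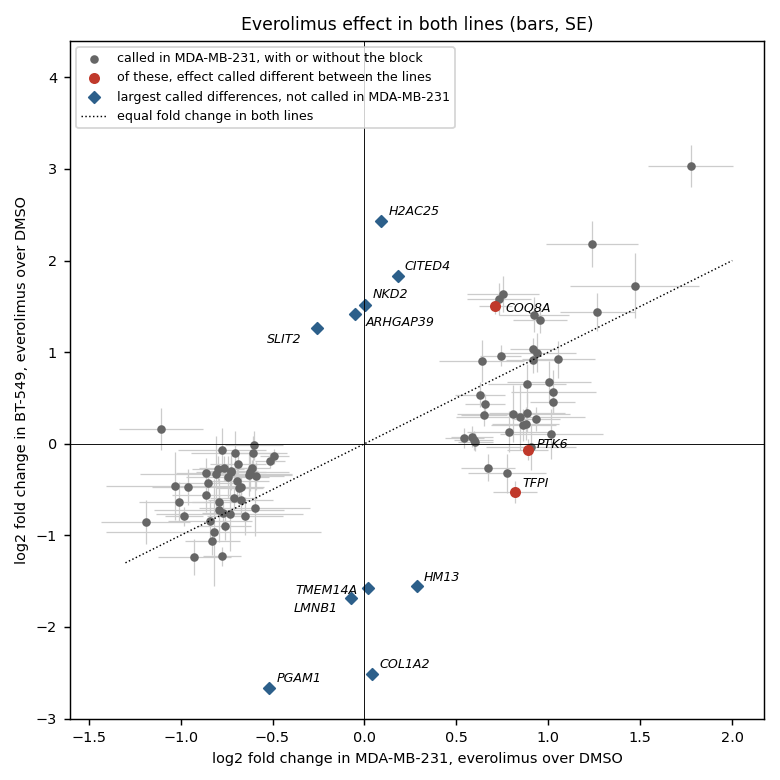
Log2 fold change (everolimus over DMSO) in MDA-MB-231 (horizontal axis) and BT-549 (vertical axis) for the 82 genes called in MDA-MB-231, with bars of 1 SE, and blue diamonds without bars for the genes of largest called difference that were not called in MDA-MB-231. PTK6 and TFPI lie at 0.89 and 0.82 on the horizontal axis and at -0.06 and -0.53 on the vertical one, and the diamonds lie between -0.52 and 0.28 on the horizontal axis.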

How the data were processed

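RNA of MDA-MB-231 and BT-549 cells was isolated (mirVana), amplified and labelled (TotalPrep) and hybridised to Illumina arrays, per the labels' protocols. The deposited values are on a log scale taken as log2 from their range (6.24 to 14.56), and all 12 columns hold the same quantiles, so the authors' table was quantile normalized as far as its values show. For the software and any background correction, nothing is given in the sources used here. Another deposited table had 12 columns that match no sample label and were not used. No array pair held identical values.

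Of 47230 probes, 30113 had 1 gene symbol, 8 had several and 17109 were unlisted in the platform annotation. A probe was kept if it exceeded 6.77 on at least 3 arrays, which is the background peak (6.55) plus 3 SDs, and the brightest probe of each gene was tested, 11764 genes in all. The number of arrays limits the precision (median SE 0.155). A limma 3.58.1 fit in R 4.3.3 over all 4 groups gave the everolimus effect in each line and their difference, with Benjamini-Hochberg adjustment over all genes tested and a threshold of 0.05. Every adjusted p is from limma. The labels number the replicates, and all same-numbered pairs of MDA-MB-231 correlated above 0.1. The number within each line was therefore also fitted as a block. In BT-549 the pair numbered 2 correlated at 0.0787, under that limit, and this line was blocked all the same. In MDA-MB-231, everolimus array 2 with DMSO array 3 (0.36) and everolimus array 3 with DMSO array 2 (0.546) passed the limit too. The limit therefore does not show that arrays 2 and 3 are paired by number. The fits were tested on 5 sets of simulated data with 200 changed genes each. The fit without the block recovered 75.8% of changes of 1 log2 unit and 27.8% of changes of 0.5. With the block these shares were 49% and 1%. False calls were 39 of 557 without the block and 12 of 262 with it. In the simulated data the block gave fewer calls, whereas on these arrays it gave more (79 against 18). The simulated shares may therefore not hold for these arrays. A gene that was not called may still have changed by 0.5 or more. Promoters came from RefSeq tables, searched with Python 3.11.15.

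The members, gene lists and tests were chosen with earlier results of these data known. Genes are named if called without the block, among the 12 largest rises or falls called with the block alone and without overlap, among the 4 smallest p-values of a list, called within a list, or among the largest differences between lines. TIMM8B, TOMM40, PDF, POLR3K, CD44, COL3A1, the genes differing between lines with the block, and those singled out for probe disagreement or promoter motifs were chosen after their values were seen. Alternatives covered the floor, the arrays fitted, each array left out, the scaling, the background, the probe choice, the prior and array weights.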

Additional observations from a re-analysis of the deposited data

Results flagged for a closer look

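The everolimus effect in MDA-MB-231 differed from that in BT-549 by limma's test of the difference itself for 13 genes named here. For PTK6 the effect in MDA-MB-231 minus that in BT-549 was 0.95, for TFPI 1.35 and for COQ8A -0.80, and PTK6 was not above background in BT-549. Of the 10 largest differences among those called, 5 each way, the first 5 had the higher effect in MDA-MB-231 and fell in BT-549: COL1A2 (2.55), PGAM1 (2.15), HM13 (1.84), LMNB1 (1.61) and TMEM14A (1.6). The other 5 rose in BT-549: H2AC25 (-2.34), CITED4 (-1.66), SLIT2 (-1.52), NKD2 (-1.51) and ARHGAP39 (-1.47). None of these 10 was called in MDA-MB-231, where their log2 fold changes lay between -0.52 and 0.28. COL1A2 was at background there, with 6.57, 6.44 and 6.60 on everolimus arrays and 6.44, 6.58 and 6.46 on DMSO arrays. NKD2 was at background there as well, with means of 6.54 on everolimus and 6.54 on DMSO arrays. H2AC25 (means 6.77 and 6.68) and CITED4 (6.82 and 6.64) lay close to the background limit of 6.77. For these genes a lack of response in MDA-MB-231 could not be measured well. The lamin gene LMNB1 had log2 fold changes of -0.07 for MDA-MB-231 and -1.68 for BT-549.

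Probes without a single gene symbol stood outside the gene-level comparison and carried a signal as well. Among 20357 probes above background, 4774 were of this kind, and they held 12 of 44 probes called by limma in MDA-MB-231 and 50 of 233 called with the block. The largest rise among them was that of probe ILMN_1654609 (1.42), which read 11.34, 10.98 and 11.19 on everolimus arrays and 9.74, 9.55 and 9.95 on DMSO arrays (limma adjusted p = 0.0287). Probes ILMN_1675472, ILMN_1681252 and ILMN_2367165 rose by 0.94, 0.88 and 0.62. The falls were ILMN_1702783 (-1.01), ILMN_1788462 (-0.92), ILMN_3270542 (-0.79), ILMN_3179620 (-0.78), ILMN_3254413 (-0.76), ILMN_3226392 (-0.65), ILMN_3240721 (-0.65) and ILMN_3290640 (-0.50). The genes these probes read were not named here.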

How the results depend on the processing

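No called gene changed direction in any setting run, while uncalled genes near 0 such as MTOR, FKBP1A and ERBB2 did. With 12 genes higher, 6 lower and 75 different between the lines as reported, the replicate block gave 39, 40 and 707, and array weights gave 452, 500 and 3545. Without the 4 replicate 1 arrays the counts were 415, 391 and 2345. No floor gave 13 lower genes, and a stricter floor gave 3 lower and 24 different. Subtracting the background peak gave 1 higher, 1 lower and 0 different (1793 at an unadjusted p under 0.05), and a trended robust prior gave 5, 1 and 16. The 6 MDA-MB-231 arrays alone gave 0 higher and 0 lower by limma (731 and 856 unadjusted), and 519 and 525 with the replicate block. Leaving out single arrays gave 0 to 63 higher, 0 to 62 lower and 0 to 1219 different, so the counts of called genes depend on the arrays and on how the replicate number is treated, and the cause was not tested. The medians of 11 lists near 0 changed sign in at least 1 setting, the lysosomal and autophagy lists among them. Genes near background have compressed differences, which limits what a fold change close to the floor can show.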
